A study of Mus musculus with 4 samples.

Results

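The miRNA described here are the arms of 4 mouse hairpins, miR-190a, miR-190b, miR-184 and miR-3068, in neurons cultured from the cortex of WT and TgAD embryos. The members are 7 of the 1966 mature miRNA listed in the count tables: mmu-miR-190a-5p, mmu-miR-190a-3p, mmu-miR-190b-5p, mmu-miR-184-3p, mmu-miR-184-5p, mmu-miR-3068-3p and mmu-miR-3068-5p. They were chosen by their fold change between genotypes in these same libraries, since 1 arm of miR-190a, miR-184 and miR-3068 was over 3-fold lower in TgAD than in WT, and the opposite arms and the paralog miR-190b were added for comparison. The genotype difference of the members is therefore given as a description, without a test. Among the members, 6 had at least 1 read in any library and 5 had enough reads to enter the fit over all miRNA.

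Small RNA was sequenced in 2 libraries of WT neurons and 2 libraries of TgAD neurons, each sequenced at a read length of 50 bp. TgAD embryos carried transgenes for mutant human presenilin 1, lacking exon 9, and for a mouse/human hybrid APP bearing the Swedish mutations, both driven by the mouse prion protein promoter, on a mixed B6C3 background. WT embryos carried neither transgene. Per the labels, cortex was taken at E16.5 in both genotypes, and the dissociated cells were kept untreated for 5 days in serum-free differentiating medium. A culture held the cells of 1 embryo, whose genotype was determined later. These were bulk cultures, so fewer cells of a type and less miRNA per cell cannot be told apart. The libraries held 2070204 and 2752599 reads on miRNA for WT and 2758525 and 4811010 for TgAD, and 3 reads, the lowest count read as a level, stood for 0.746 to 1.28 CPM, the read count scaled to the TMM-normalised library size.

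Each miRNA hairpin is cut by Drosha and Dicer into a duplex of a 5p and a 3p arm. One strand is usually loaded into an Argonaute protein and kept as the guide, and the other is mostly degraded, so that the arms of 1 hairpin can accumulate very unequally although they come from the same transcript. The guide pairs with target mRNA through its seed near the 5′ end, and miRNA with the same seed can share targets. miR-184 is best known from the corneal and lens epithelium, where a change in its human seed causes an inherited disease of the cornea and lens. The gene of miR-190a lies within the gene of talin 2, a protein that links integrins to the actin cytoskeleton.

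The mature sequences are shown because the seed decides which members could act on the same targets. They were taken from RefSeq on build GRCm38.p6, are written 5′ to 3′ in lower case, and carry the seed, bases 2 to 8, in capitals.
mmu-miR-190a-5p: uGAUAUGUuugauauauuaggu
mmu-miR-190b-5p: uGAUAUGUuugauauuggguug
mmu-miR-190a-3p: aCUAUAUAucaagcauauuccu
mmu-miR-184-3p: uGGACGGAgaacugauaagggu
mmu-miR-184-5p: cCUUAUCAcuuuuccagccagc
mmu-miR-3068-3p: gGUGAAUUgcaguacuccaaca
mmu-miR-3068-5p: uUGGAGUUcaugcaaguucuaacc

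miR-190a-5p and miR-190b-5p had the same seed, and no other miRNA in the RefSeq table shared it. Their first 15 of 22 bases were identical. With positions counted from 1 at the 5′ end and miR-190a-5p given first, the remaining bases all differed (A16U, U17G, U18G, A19G, G20U, G21U and U22G). None of the other 5 members shared its seed with another miRNA of the table. miR-190a-5p, miR-190b-5p, miR-184-3p and miR-3068-3p thus carried 3 different seeds between them. GC content of the mature sequence was 22.7% in miR-190a-5p, 31.8% in miR-190b-5p, 45.5% in miR-3068-3p, 41.7% in miR-3068-5p and 50.0% in miR-184-3p.

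The hairpins are shown because they place both arms of a precursor beside each other, and here the capitals mark the mature 5p and 3p arms.
Mir190a, chr9:67236660-67236726, minus strand: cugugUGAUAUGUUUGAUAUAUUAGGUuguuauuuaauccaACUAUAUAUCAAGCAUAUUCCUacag
Mir190b, chr3:90070020-90070099, plus strand: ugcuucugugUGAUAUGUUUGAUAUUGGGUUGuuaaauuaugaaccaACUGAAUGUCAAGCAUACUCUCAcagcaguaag
Mir184, chr9:89802260-89802328, minus strand: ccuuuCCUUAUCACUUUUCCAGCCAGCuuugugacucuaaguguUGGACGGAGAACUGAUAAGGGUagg
Mir3068, chr12:87437679-87437757, minus strand: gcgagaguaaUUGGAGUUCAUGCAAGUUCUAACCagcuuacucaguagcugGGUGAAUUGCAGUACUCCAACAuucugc

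Each mature sequence of a member occurred in 1 hairpin of the table, so none of these counts combined several loci. Mir190a lay in an intron of Tln2, the talin 2 gene (67217087 to 67559703), on the same strand, and all 6 transcripts that span it placed it between 67229458 and 67240679. Mir3068 lay in an intron of Alkbh1, which encodes a dioxygenase of the AlkB family (87425840 to 87444017), also on the same strand. The Mir3068 hairpin overlapped a second annotation of the same name, a small nucleolar RNA from 87437682 to 87437817, and the long noncoding RNA gene Gm29362 from 87437684 to 87437816. Mir184 was intergenic, 63785 bp from Ankrd34c, the nearest protein-coding gene. Mir190b was also outside any other gene, 1673 bp from 4933434E20Rik and 2550 bp from Tpm3, a tropomyosin gene. The 3 hairpins whose arms led the choice thus had no host gene in common.

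The 2 kinds of deposited table disagreed on which library is which, and this bears on every member. In a table of normalized values for 674 miRNA, every value divided evenly by a step worth 1 read in its column, and the reads could be recovered. The column named for WT 1 held the reads of the count table of TgAD 1 in 674 of 674 miRNA. The column named for WT 2 held those of the count table of WT 1, and the column named for TgAD 1 those of TgAD 2, again in all 674. The column named for TgAD 2 equalled no count table, with at most 30 of 674 miRNA alike, and the reads of WT 2 stood in no column. With the labels of the count tables, log2 counts of 693 miRNA correlated at 0.979 between the WT libraries and 0.981 between the TgAD libraries. Between a WT and a TgAD library the correlation was 0.957 to 0.964. Which labels are right was not tested. The values below use the count tables with their sample labels, and values without the library labelled TgAD 1 are given beside them.

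miR-190a-5p, the guide of the miR-190a hairpin, was represented by 495 and 546 reads in WT against 94 and 86 in TgAD. On the scale of normalised reads these were 210.7 and 187.5 CPM against 34.3 and 21.4 CPM, a mean of 199 ± 16.4 in WT and 27.8 ± 9.10 in TgAD (SD, n = 2 each). The groups did not overlap, and the lower WT library lay far above the higher TgAD library. The log2 fold change was -2.85 (SE 0.297), a 7.21-fold decrease, or a percent change of -86.1%. Only 3 of the 496 tested miRNA had a lower fitted value. Ordered by reads within each library, it stood at places 176 and 182 in WT and 298 and 332 in TgAD. Without TgAD 1 its log2 fold change was -3.31.

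miR-190b-5p, which carries the same seed from another chromosome, was outnumbered by its paralog 11.5 and 10.7 times in the WT libraries. Its reads were 43 and 51 in WT and 15 and 36 in TgAD, or 18.3 and 17.5 CPM against 5.47 and 8.95 CPM. Both TgAD libraries were below both WT libraries, with group means of 17.9 ± 0.556 and 7.21 ± 2.46 CPM (SD, n = 2 each). The log2 fold change was -1.28 (SE 0.355), a 2.43-fold decrease, and -1.09 without TgAD 1. The miR-190b part of all reads with this seed was 7.99% and 8.54% in WT and 13.8% and 29.5% in TgAD. The 95% Wilson intervals, which cover counting error only, were 5.99 to 10.6% and 6.56 to 11.1% in WT and 8.52 to 21.5% and 22.1 to 38.1% in TgAD. miR-190a-5p was chosen by its decrease in these reads and makes up most of them. A higher miR-190b share in TgAD therefore largely follows from the choice and is given as a description. The share of both TgAD libraries was above the WT intervals, but the interval of TgAD 1 overlapped both of them and that of TgAD 2 did not. Reads of both paralogs together, the pool with this seed, came to 229 and 205 CPM in WT and 39.7 and 30.3 CPM in TgAD.

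The opposite arms of these hairpins were close to the limit of counting. Counts of miR-190a-3p were 5 and 18 in WT against 6 and 2 in TgAD, and the groups overlapped. miR-190b-3p, which is no member but completes the comparison of arms, was read 0 times in both WT libraries and 2 times in both TgAD libraries, under the floor of 3 reads. The 5p arm made up 99.0% and 96.8% of miR-190a reads in WT and 94.0% and 97.7% in TgAD, so the 5p strand held nearly all reads of this hairpin in each library.

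miR-184-3p was read 75 and 86 times in WT and 24 and 21 times in TgAD. Its levels were 31.9 and 29.5 CPM in WT and 8.75 and 5.22 CPM in TgAD, with means of 30.7 ± 1.69 and 6.98 ± 2.49 (SD, n = 2 each). The WT libraries lay close together and both TgAD libraries were below them. The log2 fold change was -2.16 (SE 0.347), a 4.47-fold decrease, and -2.64 without TgAD 1. miR-184-5p had no read in any library. At a count of 0, the 95% Wilson interval of the 5p share reached up to 4.87% and 4.28% in the WT libraries. At their lower depth for this hairpin, it reached up to 13.8% and 15.5% in the TgAD libraries.

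miR-3068-3p was the most abundant member, counted 1061 and 1087 times in WT and 323 and 467 times in TgAD. These were 451.6 and 373.3 CPM in WT and 117.7 and 116.1 CPM in TgAD, with means of 412 ± 55.3 and 117 ± 1.13 (SD, n = 2 each). The TgAD libraries were nearly equal and lay well under those of WT. The log2 fold change was -1.82 (SE 0.206), a 3.53-fold decrease, and -1.92 without TgAD 1.

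Reads of miR-3068-5p, the opposite arm from the same hairpin, numbered 230 and 326 in WT and 201 and 281 in TgAD. Its levels of 97.9 and 112.0 CPM in WT and 73.3 and 69.9 CPM in TgAD did not overlap either, but the gap between genotypes was much smaller than for the 3p arm. Means were 105 ± 9.95 CPM in WT and 71.6 ± 2.39 CPM in TgAD (SD, n = 2 each). The log2 fold change of -0.55 (SE 0.219) passed neither the fold cutoff nor the adjusted p cutoff of the fit over all miRNA. Without TgAD 1 the log2 fold change was -0.69.

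**Figure D1:**
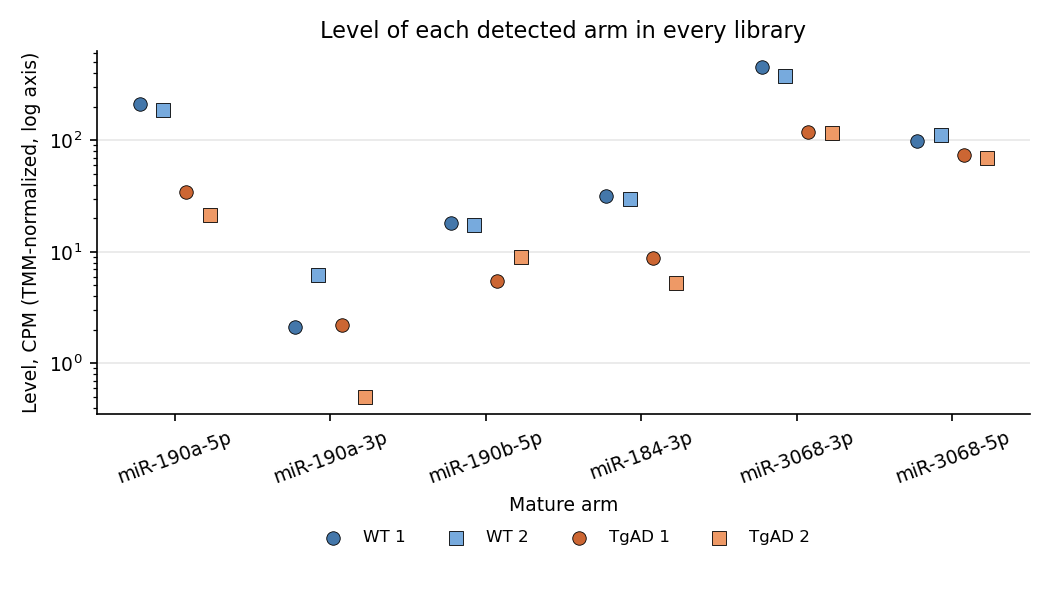
Levels of the member arms in CPM on a log axis, with 1 point per library for 2 WT and 2 TgAD libraries. miR-190a-5p sits at 187.5 and 210.7 CPM in WT and at 21.4 and 34.3 CPM in TgAD, while the points of miR-190a-3p overlap between the genotypes.

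In the count tables the 2 arms of miR-3068 did not move by the same factor. Its 3p arm was chosen by its decrease in these reads and makes up most of the hairpin's reads, so a higher 5p share in TgAD largely follows from the choice and is given as a description. The 5p arm held 17.8% of the reads of this hairpin in WT 1 (95% Wilson interval 15.8 to 19.998) and 23.1% in WT 2 (20.9 to 25.3). In TgAD 1 it held 38.4% (34.3 to 42.6) and in TgAD 2 it held 37.6% (34.2 to 41.1). The WT intervals were below the TgAD intervals, also without TgAD 1, and the share needs no normalization because it is formed within a library. With the columns of the normalized table taken by name, the share averaged 28.1% in WT and 27.8% in TgAD, so the difference was not seen there. The ratio of 3p to 5p reads went from 4.61 and 3.33 in WT to 1.61 and 1.66 in TgAD. miR-3068-3p remained the more abundant arm in every library of the count tables.

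**Figure D2:**
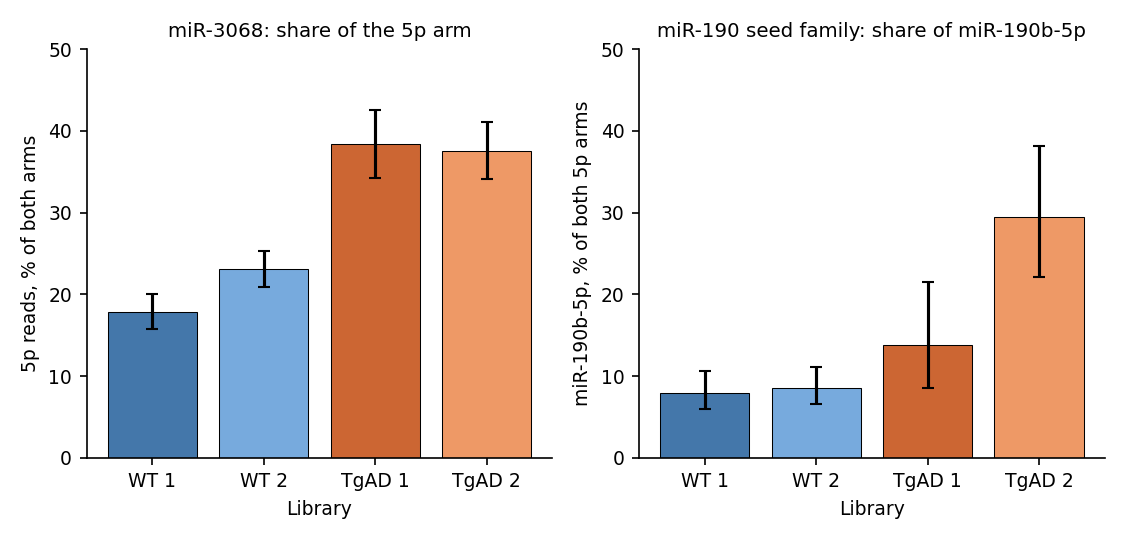
Share of 5p reads of miR-3068 and share of miR-190b among all miR-190 5p reads, in percent, per library with 95% Wilson intervals. The 5p share of miR-3068 is 17.8% and 23.1% in WT and 38.4% and 37.6% in TgAD, and the miR-190b share is 29.5% in TgAD 2 against 13.8% in TgAD 1.

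The difference of miR-3068 was set beside those of the hairpins whose arms were both counted, which, unlike it, were not chosen by a decrease of 1 arm. On the log2 scale the 5p to 3p ratio of miR-3068 averaged -1.97 in WT and -0.71 in TgAD, a difference of 1.26, and TgAD 2 alone was at -0.73. Over the 122 hairpins, miR-3068 included, with at least 10 reads of both arms in every library, the median difference was -0.10 with quartiles of -0.94 and 0.58. Counting miR-3068 itself, the difference was at least this large in the same direction in 12 of them (9.84%) and in either direction in 29 (23.8%), and this place restates in part how it was chosen. In 85 of the 122 hairpins (69.7%), both TgAD libraries were on one side of both WT libraries in arm ratio. Such a split arises in a fraction of 0.333 of the orderings of 2 against 2 libraries. With at least 50 reads of both arms, 79 hairpins remained and 5 (6.33%), again with miR-3068 among them, were at or above its value.

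**Figure D3:**
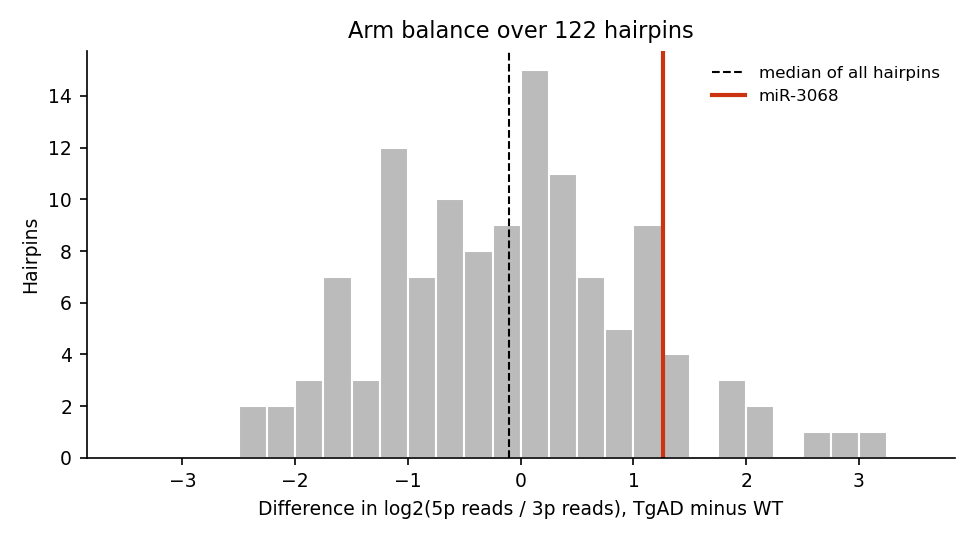
Number of hairpins by the difference between TgAD and WT in the log2 ratio of 5p to 3p reads, for the 122 hairpins with at least 10 reads of both arms in every library. The line for miR-3068 stands at 1.26, in the upper tail of a distribution whose median is -0.10.

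In the edgeR quasi-likelihood fit over 496 miRNA, calls required a log2 fold change beyond 0.6 in either direction and a Benjamini-Hochberg adjusted p under 0.1. Of the 5 members tested, 4 were called lower and 0 higher, where 17.3% of all tested miRNA were called lower (86, beside 78 called higher). With total counts as library size, which shifted the median of all miRNA from 0.03 to -0.23, the split was 122 lower and 43 higher, and the 5 members kept their direction. Both TgAD libraries were below both WT libraries in 5 of the 5, as in 32.5% of all tested miRNA, and 3 of the 5 were over 3-fold lower, as were 5.85% of all. These counts restate the choice of the members, which used this contrast. An exact permutation test of 2 against 2 libraries cannot go below a two-sided p of 0.333. Just inside the 3-fold limit of the choice were miR-541-3p, at 3.12-fold, and miR-497b, at 3.01-fold, and just outside it were miR-137-3p and miR-29a-5p, both at 2.88-fold.

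Base composition, which the choice did not use, differed among the members. Mature sequences were found in RefSeq for 441 of the tested miRNA, which were put into 5 groups of rising GC content. The median log2 fold change rose from -0.46 and -0.24 in the first 2 groups to 0.20, 0.21 and 0.32 in the others, and the part called lower fell from 35.1% and 34.2% to 10.2%, 6% and 2.90%. Across the 441 miRNA, GC content and log2 fold change had a Pearson correlation of 0.35 and a Spearman correlation of 0.42, and these miRNA share the same 4 libraries and are not independent. miR-190a-5p had the lowest GC content of all 441, and miR-190b-5p fell in the same lowest group, where 25 miRNA had a lower fitted value than it. Both arms of miR-3068 were in the second group, and 3 miRNA of that group were lower than miR-3068-3p. miR-184-3p was in the middle group and had the lowest value there, -2.16 against a group median of 0.20.

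When each library was corrected for its trend with GC content, the log2 fold change was -1.65 in miR-190a-5p and -0.40 in miR-190b-5p, and the latter was no longer called. It was -2.38 in miR-184-3p and -1.71 in miR-3068-3p, near the uncorrected values, and -0.16 in miR-3068-5p. The trend was fitted without regard to genotype, so the correction also removes any genotype difference that runs with GC content. miR-190a-5p, with the lowest GC content, lies where the fitted curve ends. These values therefore do not measure the part of base composition in the differences between genotypes, which was not tested.

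**Figure D4:**
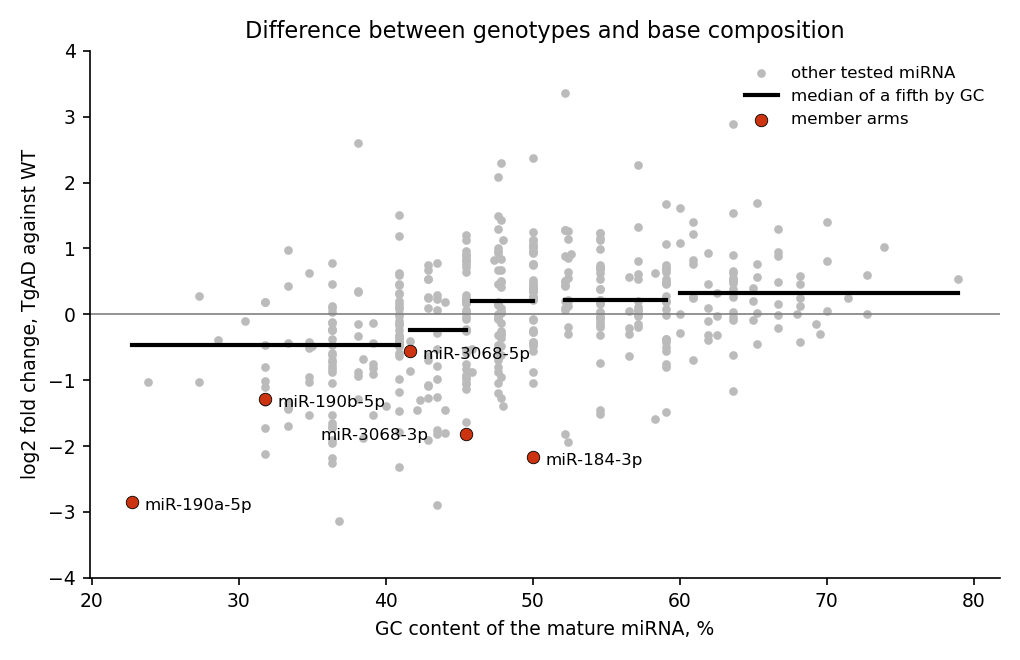
Log2 fold change of TgAD against WT by GC content of the mature sequence in percent, with 1 point per miRNA, the members in red and a line at the median of each of 5 groups by GC content. The lines climb from -0.46 to 0.32, miR-190a-5p is the leftmost point, miR-184-3p is far under the line of its group, and 1 miRNA below -4 is outside the axis.

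The call of miR-190b-5p also depended on the tool and the libraries, since it was not made by DESeq2, without WT 1 or without TgAD 1. miR-190a-5p, miR-184-3p and miR-3068-3p were called in every setting that used the count tables. Those settings reuse the libraries in which these arms were chosen by their decrease, so the calls restate the choice in part. With the reads of the normalized table and its columns taken by name, the log2 fold change was -3.03 in miR-190a-5p, -2.04 in miR-184-3p, -0.76 in miR-3068-3p, -0.75 in miR-190b-5p and -0.52 in miR-3068-5p, and edgeR called none of the 5 in that fit.

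**Figure D5:**
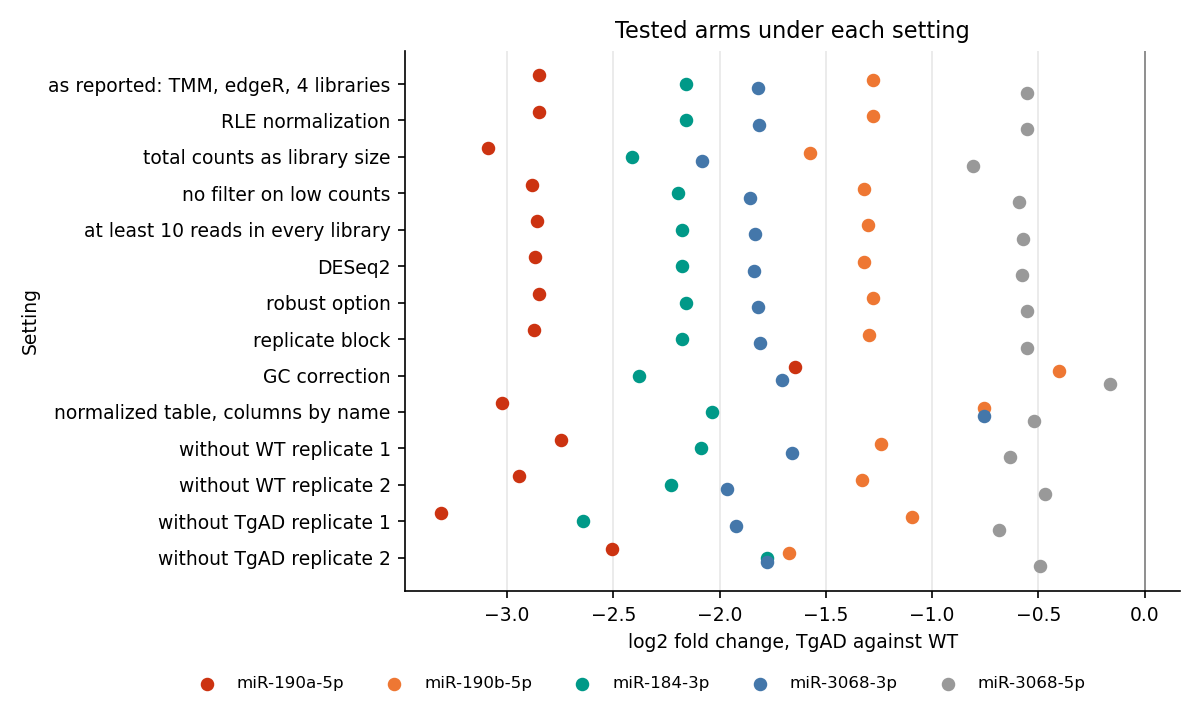
Log2 fold change of the 5 tested member arms, TgAD against WT, under each setting, with 1 point per arm and the arms offset vertically within a row. All points are below 0, miR-190b-5p reaches -0.40 with GC correction, and miR-3068-3p and miR-190b-5p meet at about -0.75 with the normalized table.

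The miRNA whose levels followed each leading member most closely were found by the Euclidean distance between log2 CPM values over the 4 libraries, each centred on its own mean. For miR-3068-3p the nearest was miR-130a-5p at a distance of 0.066, with 77.04 and 61.8 CPM in WT and 20.4 and 19.6 CPM in TgAD, followed by miR-98-5p at 0.270. Nearest to miR-190a-5p were miR-101c at 0.271 and miR-15a-5p at 0.500. For miR-184-3p they were miR-544-3p at 0.208 and miR-16-5p at 0.300, and for miR-190b-5p miR-16-2-3p at 0.237 and miR-183-5p at 0.267. miR-15a, miR-16-2 and miR-16-5p belong to the miR-15/16 clusters, and all 8 neighbours were lower in TgAD, as the measure requires of anything that follows these members.

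Markers of cell types were counted in the same libraries, since cultures of cortex can hold other cells. Among 10 miRNA of neurons, 7 were tested, of which 2 were higher (miR-128-3p and miR-132-3p) and 1 lower (miR-137-3p), with a median log2 fold change of 0.20 against 0.03 over all tested miRNA. Their summed level was 26656 and 40403 CPM in WT and 90347 and 64886 in TgAD. Most of it was miR-128-3p alone, at 18305 and 33040 CPM in WT and 84058 and 59723 in TgAD. The sum therefore does not stand for the list. Both arms of miR-9 were at 0 reads in all 4 libraries, and miR-124-3p, the classical neuronal miRNA, had only 1 to 7 reads. RefSeq lists each miR-9 arm at 3 loci. At 2 loci, miR-128-3p had 43009 to 240174 reads and miR-219a-5p had 0. At 1 locus, miR-142a-3p, miR-126a-3p and miR-338-3p had 0, while miR-137-3p had 4476 to 11671. Whether reads matching several loci were lost in counting was not tested, and no 0 count among these markers is taken as absence. Of 5 myeloid miRNA none of the 3 tested was called (miR-142a-5p at 0.44, miR-146a-5p at 0.20 and miR-155-5p at 0.63, log2), miR-223-3p had 3 to 8 reads and miR-142a-3p had 0. Of 5 miRNA of the vessel wall none of the 2 tested was called (miR-143-3p at -0.04 and miR-145a-5p at 0.07), miR-145a-3p had 0 to 9 reads, and both arms of miR-126a were at 0. Of 4 glial miRNA only miR-21a-5p had reads, and its log2 fold change of -0.46 was not called.

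Among markers of red blood cells, 1 was called lower in TgAD. Among those of the eye, choroid plexus and sensory epithelium, 3 were called lower and 1 higher. miR-451a, the erythroid miRNA, was the only one tested of 4 red blood cell markers, and its log2 fold change was -0.72 (edgeR adjusted p = 0.0707), while miR-144-3p and miR-144-5p had 0 to 3 reads and miR-486a-5p had 0. Summed over that list, levels were 1310 and 1331 CPM in WT and 957 and 646 CPM in TgAD. Nearly all of this was miR-451a, at 1309 and 1330 CPM in WT and 957 and 645 CPM in TgAD, so the sum restates that miRNA. Of 5 markers of the eye, choroid plexus and sensory epithelium, miR-182-5p (-1.40), miR-183-5p (-1.18) and miR-96-5p (-0.81), which form 1 cluster, were called lower. miR-204-5p (0.89), which marks the choroid plexus and pigment epithelium, was called higher, miR-211-5p had 4 to 5 reads, and the list summed to 1919 and 2123 CPM in WT and 988 and 1391 CPM in TgAD. The part of these cells in the levels of miR-184-3p and the other members was not tested.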

How the data were processed

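Small RNA was sequenced from WT and TgAD cortical neurons, 2 libraries each, grouped by the genotype given in the labels. The authors deposited 1 table of raw read counts per library, made from adapter-free reads mapped to GRCm38 with Bowtie2 allowing no mismatch and counted per mature miRNA with HTSeq. They also deposited a table of normalized signal, in which each library's counts are divided by its own size factor. Reads were recovered from it (tolerance 0.001 of a read) for comparison and 1 alternative. The labels and the study's methods differ on whether reads were paired and slightly on the embryonic day.

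Counts were normalised by TMM and fitted with edgeR 4.0.16 (limma 3.58.1, R 4.3.3) after filterByExpr, with genotype as the only factor and Benjamini-Hochberg adjustment over 496 miRNA. The SE is the size of the log2 fold change over the square root of F. Sequences came from RefSeq, matched by name for 1675 of 1966 miRNA, and loci from a GENCODE annotation of GRCm38. The GC correction used loess (span 0.75, prior count 2). The fit was tested on simulated data. Reads had no molecular identifiers, so Wilson intervals and the floor of 3 reads cover counting error only.

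The members, marker lists and tests were chosen with earlier results of these data known. Named were all members, miRNA sharing a seed, the paralog's opposite arm, the miRNA nearest the 3-fold limit, the 2 nearest in pattern to each leading member, and the markers. The alternatives were other normalizations and filters, DESeq2 1.42.0, edgeR's robust option, a replicate block, GC correction, the normalized table, and leaving out each library. Columns of the study's own comparisons were not used.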

Additional observations from a re-analysis of the deposited data

Results flagged for a closer look

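The column of the normalized table that is named for TgAD 2 equalled none of the count tables, and its reads entered only the fit on the normalized table with columns taken by name. Of the 1926952 reads recovered from this column, 10 were miR-190a-5p, 6 miR-190b-5p and 6 miR-184-3p. In CPM of the column's reads, miR-190a-5p stood at 5.19 there, against 239 in the column that held the reads of WT 1 and 34.1 and 17.9 in those that held TgAD 1 and TgAD 2. miR-184-3p stood at 3.11, against 36.2 in the column of WT 1 and 8.70 and 4.37 in those of TgAD 1 and TgAD 2. The column also held 295 reads of miR-3068-3p and 65 of miR-3068-5p. miR-3068-3p stood at 153 CPM, above the 117 and 97.1 in the columns of TgAD 1 and TgAD 2 and under the 513 in that of WT 1. miR-3068-5p stood at 33.7 CPM, under the 72.9 and 58.4 in the columns of TgAD 1 and TgAD 2 and the 111 in that of WT 1. The 5p share of miR-3068 was then 18.1% (95% Wilson interval 14.4 to 22.4), near the 17.8% of WT 1 and under the 38.4% and 37.6% of TgAD 1 and TgAD 2. Over all 674 miRNA, the log2 reads of this column correlated more highly with those of TgAD 2 than with any other count library. Which culture this column came from was not given in the sources used here.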

How the results depend on the processing

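The alternatives refit largely the same reads that the choice of the members used, so a common sign restates that choice in part. The 5 tested members had a negative log2 fold change in each of 65 values, from 13 alternatives per arm. With GC correction it was -1.65 in miR-190a-5p, -0.40 in miR-190b-5p and -0.16 in miR-3068-5p. With total counts as library size it was -2.08 in miR-3068-3p and -0.81 in miR-3068-5p, which was then called, and 43 miRNA were called higher. In the normalized table by name it was -0.75 in miR-190b-5p and -0.76 in miR-3068-3p, the 5p share of miR-3068 averaged 28.1% in WT and 27.8% in TgAD, and edgeR, the only tool run there, called 0 miRNA lower, 0 higher and 0 members (54 passed an unadjusted p under 0.05). Leaving out 1 library at a time gave -3.31 to -2.51 in miR-190a-5p, -1.67 to -1.09 in miR-190b-5p, -2.64 to -1.78 in miR-184-3p, -1.96 to -1.66 in miR-3068-3p and -0.69 to -0.47 in miR-3068-5p, with 47 to 61 miRNA called higher. The lone library left in a group is assumed to vary like the other group. Without a filter on low counts miR-190a-3p was also called. Causes were not tested, except that a fit without a library has fewer samples. With the replicate number as a block, miR-190a-5p was at -2.87, 101 miRNA were called lower and 87 higher, and the calls of the 5 members did not change. Deviations of libraries with the same number correlated at 0.22, and with 2 pairs and no label of a shared litter or day the number is not taken as a pairing. Of 121 alternative values, 98 stayed within the replicate spread or within 1.5 times a count, 23 moved and 0 reversed. Depth limits miR-184-3p and miR-190b-5p in TgAD, at 15 to 36 reads, and the opposite arms of miR-190a and miR-184.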
